A study of Mus musculus with 8 samples.

Results

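The 10 imprinted genes described here, *Peg3*, *Usp29*, *Zim1*, *Plagl1*, *Mest*, *Nnat*, *Impact*, *Zdbf2*, *Gnas* and *Rasgrf1*, lie in small domains outside the large imprinted clusters. They were taken by name from the 26263 genes counted, and all 10 were found. RNA-seq counts were obtained from mouse embryonic stem cells (ESCs) and from neural precursor cells (NPCs) derived from them at day 12 of *in vitro* corticogenesis, a differentiation towards cortical precursors. The line BJE2 (B/J) had a C57BL/6 mother and a JF1 father. The line JBE6 (J/B) is from the reciprocal cross, so that the crosses differ by 1 male hybrid line each. ESCs were kept with LIF, BMP4 and a GSK3-β inhibitor, and each of the 4 groups had 2 replicates, for 8 libraries. That the replicates came from separate cultures is not stated, so the p-values measure the spread between these libraries, which may be technical in part.

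An imprinted gene is transcribed mostly or only from the copy inherited from one parent, because a control region was methylated in one germline and not in the other. Paternally expressed genes of this kind are known for roles in fetal growth, the placenta, the hypothalamus and postnatal behaviour, and many are transcribed in the developing brain. Of the genes here, *Zim1* is known as maternally expressed, and *Gnas* makes several transcripts from different promoters that differ in parental origin. The counts are summed over both alleles and over all transcripts of a gene, so neither parental origin nor promoter use can be read from them. In these bulk libraries, fewer cells that transcribe a gene and less RNA of that gene per cell cannot be told apart.

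The libraries held 22537138 to 32706015 reads on genes, so 1 count was worth 0.0306 to 0.0444 CPM (count divided by the library total on genes, per 1000000). The 10 genes took 0.0894 to 0.148% of these reads in the ESC libraries and 0.331 to 0.511% in the NPC libraries. Markers of both labelled cell types were read in their libraries. The summed level of 10 pluripotency markers was 5753 to 8899 CPM in ESCs and 214 to 551 CPM in NPCs, and that of 10 neural precursor markers was 286 to 384 CPM in ESCs and 867 to 2080 CPM in NPCs. Of these 10 neural precursor markers, 9 rose. The other, *Pax6*, did not pass (log2 fold change 1.77, adjusted p = 0.0606 in edgeR). Its levels overlapped, with 1.02 to 13.9 CPM in ESCs and 7.95 to 54.9 CPM in NPCs. Markers of other cells were also higher in NPCs, with 77.5 to 198 CPM in ESCs and 1370 to 3662 CPM in NPCs over 11 trophoblast markers, and 10.1 to 70.6 CPM and 926 to 2236 CPM over 10 fibroblast markers. Of these, 9 trophoblast and 9 fibroblast markers rose, none of either list was at 0 in every NPC library, and their part in the results below was not tested. Endoderm markers summed to 258 to 312 CPM in ESCs and 662 to 854 CPM in NPCs. Of the 9 tested, 7 rose and 1 fell, and their part was not tested either. NPC B/J replicate 1 stood apart by its neuron markers, which summed to 369 CPM against 1063 to 2087 CPM in the other NPC libraries. Its 369 CPM lay within the range of the ESC libraries, 282 to 378 CPM. ESC J/B replicate 1 stood apart by its fibroblast markers, at 70.6 CPM against at most 13.8 CPM in the other ESC libraries.

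*Peg3* and *Usp29* start 114 bp apart on opposite strands of chromosome 7, as the GENCODE vM39 annotation of GRCm39 (mm39) places their canonical transcripts. The windows from 250 bases before to 50 bases after both starts are shown because both of these neighbours rose between the stages, as given below. In capitals is a cyclic AMP response element core, TGACGTCA, the only match in either window to the motifs searched. The windows overlap and read the same element from either strand, Peg3 at chr7:6733419-6733718 on the minus strand and Usp29 at chr7:6733332-6733631 on the plus strand.
Peg3: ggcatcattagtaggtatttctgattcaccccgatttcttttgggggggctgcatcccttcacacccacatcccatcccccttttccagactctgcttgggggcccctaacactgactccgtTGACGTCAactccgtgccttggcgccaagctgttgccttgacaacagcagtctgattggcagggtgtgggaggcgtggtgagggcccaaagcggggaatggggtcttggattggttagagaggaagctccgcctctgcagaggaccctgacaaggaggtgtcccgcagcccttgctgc
Usp29: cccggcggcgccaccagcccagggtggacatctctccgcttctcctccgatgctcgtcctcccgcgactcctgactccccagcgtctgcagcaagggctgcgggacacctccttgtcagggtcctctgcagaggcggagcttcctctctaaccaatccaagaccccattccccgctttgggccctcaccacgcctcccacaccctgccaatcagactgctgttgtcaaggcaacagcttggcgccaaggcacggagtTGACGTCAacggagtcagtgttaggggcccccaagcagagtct

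The same core occurred in 2.45% of 21751 windows of this size around protein-coding genes, and in 1 other window of the 10 genes, that of *Zdbf2* at chr1:63312113-63312412 on the plus strand. *Zdbf2* is shown as the gene whose level did not pass the stage test. Its window also held the core of the YY1 motif, GCCATNTT or AANATGGC on the other strand, present in 5.52% of all windows. Both matches are in capitals.
Zdbf2: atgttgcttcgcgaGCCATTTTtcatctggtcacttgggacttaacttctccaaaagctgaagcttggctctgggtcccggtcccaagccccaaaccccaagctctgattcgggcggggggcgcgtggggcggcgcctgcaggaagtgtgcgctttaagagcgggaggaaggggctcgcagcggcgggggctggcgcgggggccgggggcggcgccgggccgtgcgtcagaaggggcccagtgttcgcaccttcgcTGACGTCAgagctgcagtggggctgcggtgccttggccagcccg

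The third motif searched was the hexamer of ZFP57, TGCCGC or GCGGCA on the other strand, a zinc finger protein known to hold methylation at imprinting control regions where the hexamer is methylated. It was found in 11.7% of all windows and in those of *Zim1*, *Plagl1*, *Mest* and *Nnat*, with 2 copies in *Mest*. The *Mest* window (chr6:30737794-30738093, plus strand) and the *Nnat* window (chr2:157401731-157402030, plus strand) are shown with the hexamer in capitals, as the gene with the most copies and the member with the highest level per length in NPCs. The window of *Impact* was not searched. A match gives letters in a window and not a bound site, and windows without a match may hold other sites.
Mest: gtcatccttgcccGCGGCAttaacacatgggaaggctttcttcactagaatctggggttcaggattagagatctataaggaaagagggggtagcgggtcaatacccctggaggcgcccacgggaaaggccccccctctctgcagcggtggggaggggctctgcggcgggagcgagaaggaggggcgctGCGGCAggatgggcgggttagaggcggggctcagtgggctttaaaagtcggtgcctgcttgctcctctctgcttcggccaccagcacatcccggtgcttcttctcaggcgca
Nnat: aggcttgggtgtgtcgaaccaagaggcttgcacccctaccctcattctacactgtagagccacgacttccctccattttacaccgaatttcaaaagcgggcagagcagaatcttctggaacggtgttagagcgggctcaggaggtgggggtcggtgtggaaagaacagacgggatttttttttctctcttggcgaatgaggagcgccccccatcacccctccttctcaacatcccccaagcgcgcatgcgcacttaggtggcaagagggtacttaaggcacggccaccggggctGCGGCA

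Between ESCs and NPCs, 8 of the 10 genes rose, *Impact* fell and *Zdbf2* did not pass the test (edgeR's quasi-likelihood test over both crosses, adjusted p below 0.05). Among all 16399 genes tested, 69.4% passed in this comparison, 37.5% as higher in NPCs and 31.9% as lower. *Rasgrf1* aside, *Zim1* and *Nnat* had the highest fitted changes, and *Peg3*, *Usp29*, *Plagl1*, *Mest* and *Gnas* lay close together between 3.32- and 3.76-fold. *Rasgrf1*, with 2 counts over the ESC libraries, is not ranked. Its fitted log2 fold change of 5.63 moved to 7.42 without ESC J/B replicate 2 and to 4.98 without NPC J/B replicate 2. The median log2 fold change was 1.84 over the 10 genes and 0.17 over all genes tested. All 10 passed the filter on low counts, *Rasgrf1* through its NPC counts alone. Without it, 7 of 9 rose, 1 fell and the median was 1.79. The CPM of the 4 ESC and the 4 NPC libraries did not overlap for 9 of the 10 genes, all but *Zdbf2*, and among all genes tested they did not overlap, with NPCs higher, for 46.7% and, with NPCs lower, for 20.5%.

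**Figure D1:**
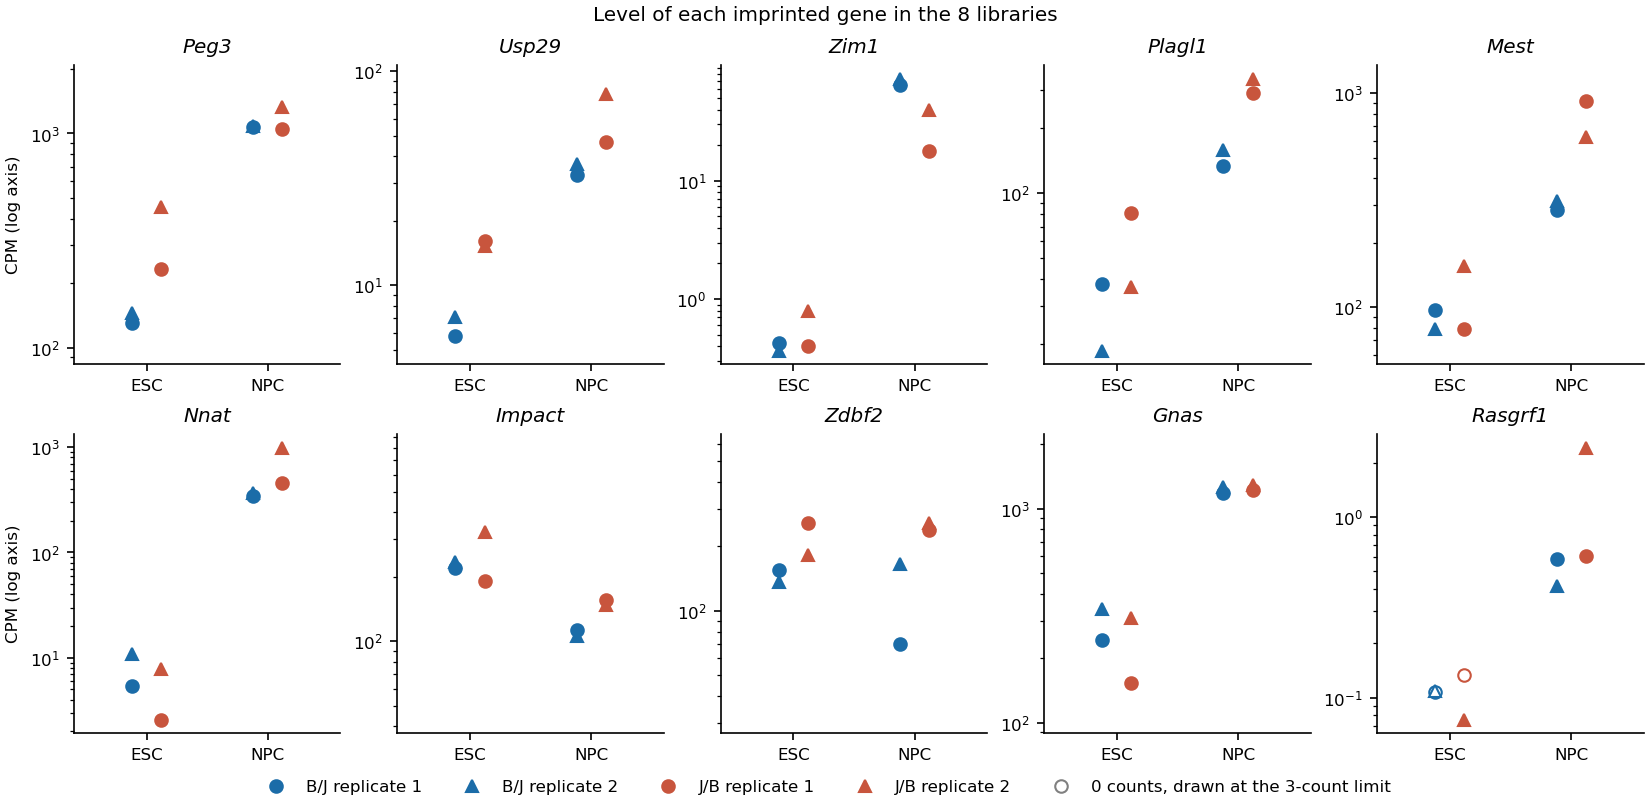
Level of the 10 genes in each library in CPM (log axis, with its own range for each gene), for ESCs and NPCs, with B/J in blue and J/B in red, circles for replicate 1 and triangles for replicate 2. The NPC points lie above the ESC points for 8 genes and below them for *Impact*, they overlap for *Zdbf2*, and the open symbols of *Rasgrf1* stand for 0 counts at the limit of 3 counts.

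*Peg3* encodes a zinc finger protein linked to growth and maternal behaviour. It was read at 130 and 146 CPM in the B/J ESCs and at 234 and 453 CPM in the J/B ESCs. In NPCs it was at 1074 and 1081 CPM in B/J and at 1052 and 1336 CPM in J/B. All NPC libraries were above all ESC libraries, and the J/B ESC libraries were above the B/J ESC libraries. Its log2 fold change over both crosses was 1.91 (standard error 0.203, adjusted p = 1.24e-04). Fold changes here and below are taken after TMM normalization, which lowers NPC levels relative to ESC levels when set beside CPM, so the ratio of mean CPM is larger than the fitted fold.

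*Usp29*, which encodes a deubiquitinase, was at 5.80 and 7.11 CPM in B/J ESCs and at 16.2 and 15.3 CPM in J/B ESCs. The NPC values were 32.9 and 36.8 CPM in B/J and 46.6 and 78.3 CPM in J/B. As with *Peg3*, both J/B ESC libraries were above both B/J ESC libraries, and at this gene the same order held in NPCs. The log2 fold change between the stages was 1.73 (standard error 0.204, adjusted p = 1.94e-04).

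*Zim1*, the zinc finger gene on the far side of *Peg3*, starts 34019 bp from the canonical *Peg3* start. Its level was 0.427 and 0.365 CPM in B/J ESCs and 0.399 and 0.792 CPM in J/B ESCs, which are 9 to 21 counts per library. In NPCs it was at 64.0 and 72.7 CPM in B/J and at 17.9 and 39.8 CPM in J/B. It was therefore near the detection limit in every ESC library and present in every NPC library, with B/J above J/B. The log2 fold change was 6.02 (standard error 0.369, adjusted p = 1.85e-05), a 64.8-fold rise. *Zim2* and *Zim3*, also listed for the domain, averaged 0.0081 and 0.026 CPM in NPCs and did not pass the filter on low counts. The antisense RNA *Peg3os* rose from 0.064 ± 0.047 to 0.478 ± 0.231 CPM (SD, n = 4 libraries each), a change of 2.32 on the log2 scale (adjusted p = 0.0349 in edgeR). *Peg3os* had 7 counts over the ESC libraries and 53 over the NPC libraries, so it passed that filter through its NPC counts alone. It was not called within either cross alone.

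*Plagl1* encodes a zinc finger transcription factor that restrains the cell cycle and is known to regulate other imprinted genes. It was at 38.2 and 18.7 CPM in B/J ESCs and at 80.8 and 36.9 CPM in J/B ESCs. In NPCs it was at 134 and 159 CPM in B/J and at 291 and 337 CPM in J/B. The ESC replicates of each cross differed by over 2-fold, 2.04 times in B/J and 2.19 times in J/B, while the NPC replicates lay within 1.19 times of each other. ESC J/B replicate 1, the highest ESC library for *Plagl1*, is the one with 70.6 CPM of fibroblast markers. In B/J ESCs, replicate 1 was also the higher for *Plagl1*, but its fibroblast markers were the lower, at 10.1 CPM against 13.8 CPM. Pluripotency markers were higher in replicate 1 of both pairs, at 7961 and 6377 CPM in B/J and 8899 and 5753 CPM in J/B. The part of cell composition was not tested. The stage change was 1.90 on the log2 scale (standard error 0.323, adjusted p = 0.00128).

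*Mest* encodes a membrane protein of the α/β hydrolase fold family and is widely transcribed in embryonic mesoderm. Its ESC levels were 97.5 and 79.0 CPM in B/J and 79.3 and 156 CPM in J/B. The NPC levels were 286 and 315 CPM in B/J and 924 and 627 CPM in J/B. The crosses overlapped in ESCs but not in NPCs, where J/B was higher. The log2 fold change between the stages was 1.77 (standard error 0.233, adjusted p = 3.47e-04).

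*Nnat* encodes neuronatin, a small membrane protein of the endoplasmic reticulum that is known from the developing brain and modulates calcium pumps. In ESCs it was at 5.41 and 10.9 CPM in B/J and at 2.57 and 7.81 CPM in J/B. NPC values were 346 and 367 CPM in B/J and 462 and 991 CPM in J/B. The lowest NPC library was thus more than an order of magnitude above the highest ESC library. The rise was 5.82 on the log2 scale (standard error 0.455, adjusted p = 3.98e-05), or 56.3-fold.

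*Impact* encodes an inhibitor of the kinase GCN2 that binds its partner GCN1 and is abundant in neurons. It was at 220 and 234 CPM in B/J ESCs and at 192 and 325 CPM in J/B ESCs. In NPCs it was at 113 and 106 CPM in B/J and at 156 and 148 CPM in J/B. Every NPC library was below every ESC library, which made it the 1 member that fell. On the log2 scale it fell by 1.38 (standard error 0.165, adjusted p = 2.14e-04), or 2.60-fold.

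*Zdbf2* encodes a protein with a DBF4-type zinc finger and is known for a programme of paternal expression set up in the early embryo that acts in the hypothalamus. It was at 155 and 137 CPM in B/J ESCs and at 256 and 182 CPM in J/B ESCs. NPC values were 69.7 and 166 CPM in B/J and 238 and 258 CPM in J/B. The stages overlapped, and NPC B/J replicate 1 was the lowest of all libraries. The log2 fold change was -0.55 (standard error 0.265, adjusted p = 0.0955). The 4 NPC libraries ranked by *Zdbf2* began with the library of the lowest neuron markers and ended with the one of the highest, 369 and 2087 CPM, and a part of cell composition was not tested. Without NPC B/J replicate 2, *Zdbf2* passed the test as lower in NPCs, with -0.92 (adjusted p = 0.0058), and its adjusted p ranged from 0.0058 to 0.839 over the alternatives.

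*Gnas* encodes the stimulatory G protein α subunit, which couples receptors to adenylyl cyclase, and longer or shorter proteins from other promoters. It was at 242 and 339 CPM in B/J ESCs and at 153 and 308 CPM in J/B ESCs. In NPCs it was at 1187 and 1260 CPM in B/J and at 1226 and 1296 CPM in J/B. Its NPC levels were the most even among the 10 genes, the highest library being 1.09 times the lowest. The log2 fold change was 1.79 (standard error 0.215, adjusted p = 2.24e-04).

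*Rasgrf1*, an exchange factor for Ras known from neurons, was barely read. ESCs gave 0 counts in both B/J libraries and 0 and 2 counts in the J/B libraries, and NPCs gave 18 and 11 counts in B/J and 20 and 62 counts in J/B. These NPC counts are 0.584, 0.414, 0.612 and 2.42 CPM, and 1 J/B library held 62 of all 111 NPC counts. On library totals, the 111 NPC counts against 2 ESC counts gave a ratio of 50.1, with a 95% exact interval of 13.6 to 419 that covers counting error only. Leaving out NPC J/B replicate 2 gave 28.4, and leaving out ESC J/B replicate 2, which held both ESC counts, gave at least 25.0-fold with 3 counts over the ESC libraries as the floor. The edgeR fit called the gene higher (adjusted p = 0.0038).

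Levels of different genes can be set side by side once divided by exon length. Per kilobase of merged exons, *Nnat* was highest in NPCs at 260 ± 146 CPM per kb (SD, n = 4 libraries), followed by *Gnas* at 103 ± 3.87, *Peg3* at 83.1 ± 9.80 and *Mest* at 66.7 ± 37.2 CPM per kb. These neighbours overlapped in part: the lowest *Nnat* library, at 166 CPM per kb, was above the highest *Gnas* library, at 108, whereas *Mest* ranged from 35.4 to 115 CPM per kb and so spanned both *Peg3* and *Gnas*. *Plagl1* at 26.9 ± 11.6, *Impact* at 15.1 ± 2.87 and *Zdbf2* at 14.4 ± 6.68 CPM per kb also overlapped in NPCs. *Zim1* at 5.94 ± 3.03, *Usp29* at 2.69 ± 1.14 and *Rasgrf1* at 0.0819 ± 0.0769 CPM per kb stood at the low end, *Zim1* overlapping with both *Usp29* and *Zdbf2*.

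The order was different in ESCs. *Impact* was highest at 28.0 ± 6.65 CPM per kb (SD, n = 4 libraries), followed by *Gnas* at 21.7 ± 6.84, *Peg3* at 17.6 ± 10.9, *Zdbf2* at 14.3 ± 4.13 and *Mest* at 12.8 ± 4.52 CPM per kb, each of which overlapped with the next. *Nnat*, first in NPCs, was at 3.21 ± 1.71 CPM per kb in ESCs. *Usp29* stood far below its divergent partner *Peg3* at both stages, with 0.614 CPM per kb in ESCs. The order also depends on the exon length used. On the longest transcript alone, *Gnas* was first in ESCs, at 61.5 CPM per kb against 34.0 for *Impact*, and was above it in every ESC library. In NPCs, the means on that length were 293 CPM per kb for *Gnas* and 360 for *Nnat*, but *Gnas* was above *Nnat* in both B/J libraries (means of 289 and 237) and below it in both J/B libraries (297 and 484). *Usp29* and *Zim1* were at 6.45 and 6.22, with *Usp29* below *Zim1* in both B/J libraries and above it in both J/B libraries.

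**Figure D2:**
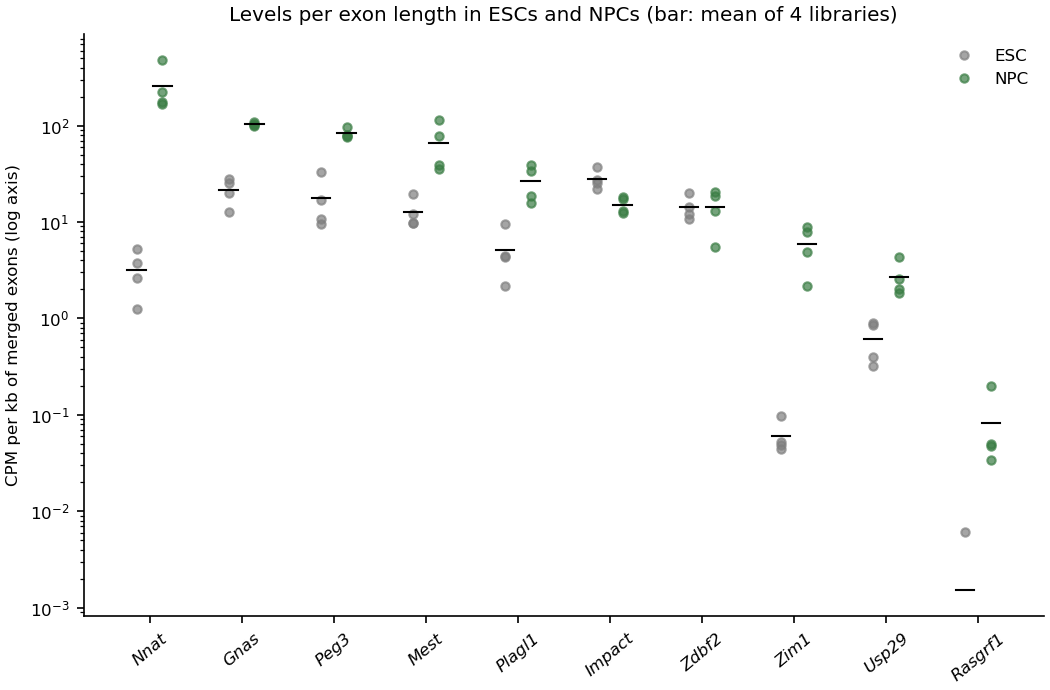
Level of each gene per kilobase of merged exons (CPM per kb, log axis) in ESCs (grey) and NPCs (green), with 1 point per library and a black bar at the mean of 4 libraries, genes ordered by their NPC mean. *Nnat* moved from 3.21 to 260 CPM per kb, the NPC libraries of *Zdbf2* ranged from 5.48 to 20.2 CPM per kb around a mean close to that of ESCs, and ESC libraries of *Rasgrf1* at 0 counts are not drawn but enter its mean.

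Within each cross taken alone, the same 8 genes passed as higher and *Impact* as lower, or 7 and 1 of 9 genes without *Rasgrf1*, which passed the filter on low counts through its NPC counts. Of all genes, 55.8% passed within B/J, 30.1% higher and 25.6% lower, and 54.5% within J/B, 29.1% higher and 25.3% lower. *Peg3* rose by 2.50 on the log2 scale in B/J and by 1.32 in J/B (standard errors 0.294 and 0.283), and *Usp29* by 1.96 and 1.50. *Zim1* rose by 6.94 in B/J and 5.09 in J/B, *Mest* by 1.29 and 2.25, *Nnat* by 4.98 and 6.65, and *Gnas* by 1.61 and 1.98. The change of *Plagl1* was close in both crosses, at 1.88 and 1.91, as was that of *Impact*, at -1.52 and -1.24. Whether these sizes differ between the crosses is tested with the interaction term.

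Some of these within-cross values rested on 1 library. Within B/J, *Plagl1* was at 1.43 (adjusted p = 0.0565) and *Mest* at 1.12 (adjusted p = 0.0801) without ESC B/J replicate 2, and *Plagl1* was at 2.53 without ESC B/J replicate 1. Within J/B, leaving out NPC J/B replicate 2 gave 4.41 for *Zim1* and 6.00 for *Nnat*. Leaving out ESC J/B replicate 1 gave 2.65 for *Plagl1*, and leaving out ESC J/B replicate 2 gave 7.62 for *Nnat*. *Zdbf2* passed within B/J as lower, at -1.51 (adjusted p = 0.0099), without NPC B/J replicate 2. *Rasgrf1* was read at 0 in all B/J ESCs, so its B/J rise is a lower bound of at least 9.35-fold on library totals, the floor being 3 counts over the ESC pair. Its J/B ratio was 34.5 (95% exact interval 9.24 to 289), and the fitted call within J/B was lost without NPC J/B replicate 2 (adjusted p = 0.138) or ESC J/B replicate 1 (adjusted p = 0.0818), and within B/J without any 1 of its 4 libraries.

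**Figure D3:**
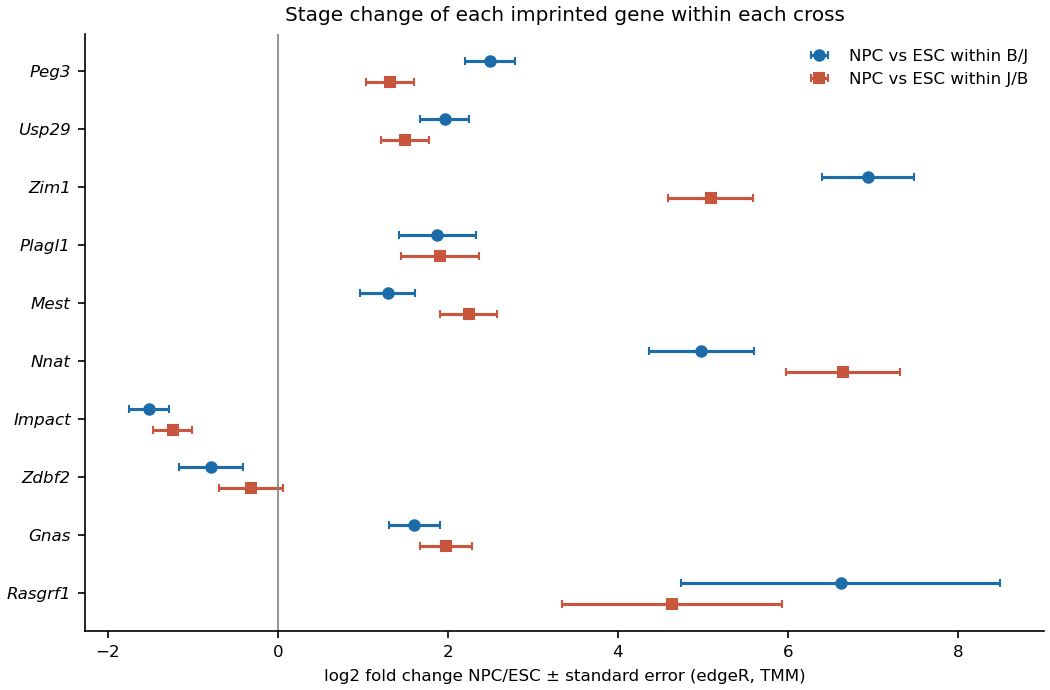
Log2 fold change from ESCs to NPCs with its standard error, from the edgeR fit of all 8 libraries, within B/J (blue circles) and within J/B (red squares). The 8 genes that rose lie right of 0 in both crosses and *Impact* lies left of 0, and the wide bars of *Rasgrf1* come with 0 counts in B/J ESCs, where its fitted value is no bound.

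The interaction term, the test of whether the stage change differed between the crosses, called 0 of the 10 genes and 0 of all genes tested (0%). At an unadjusted p below 0.05 it held 573 of all genes and 2 of the 10, *Peg3* (-1.17, standard error 0.394) and *Zim1* (-1.85, standard error 0.674), where a negative value is a smaller rise in J/B. The *Zim1* value ranged from -2.54 without NPC J/B replicate 2 to -1.30 without ESC J/B replicate 2. DESeq2 called 11 genes and limma-voom 0, none of them among the 10. The differences in size between the crosses therefore did not pass the test.

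The reciprocal crosses were also compared within a stage, which sets 1 line against the other and cannot tell strain, parent of origin and line apart. In ESCs, edgeR called 0 of the 10 genes and 0 of all genes (0%), with 346 genes at an unadjusted p below 0.05, and DESeq2 called 10 genes and none of the 10 members. *Peg3* and *Usp29*, the divergent pair, were the members below 0.05 before adjustment, with log2 differences of 1.27 and 1.25 (standard errors 0.283 and 0.288), J/B being higher. Neither passed after adjustment (edgeR adjusted p = 1 for both). Together with *Zdbf2* they were the 3 genes whose 2 J/B ESC libraries were both above both B/J ESC libraries, an order seen in 14% of all genes, with the reverse order in none of the 10 and in 8.35% of all genes. *Plagl1* overlapped between the crosses in ESCs, but between libraries of equal replicate number J/B was 2.12 and 1.97 times B/J in ESCs and 2.18 and 2.12 times in NPCs. With replicate number as a block within each stage, its J/B to B/J difference was 0.996 in ESCs (adjusted p = 0.279 in edgeR) and 1.05 in NPCs (adjusted p = 0.0648).

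In NPCs, the J/B libraries were both above both B/J libraries for 7 genes, *Usp29*, *Plagl1*, *Mest*, *Nnat*, *Impact*, *Zdbf2* and *Rasgrf1*, and both below for *Zim1*. Among all genes the shares were 21.1% and 18.6%. *Peg3* and *Gnas* overlapped, with log2 differences of 0.095 and -0.0086. edgeR called 0 of the 10 genes and 1 of all genes (0.0061%), with 1050 genes at an unadjusted p below 0.05. Before adjustment, 5 members were below 0.05, *Mest* (log2 difference 1.32, standard error 0.325), *Usp29* (0.79), *Zim1* (-1.30), *Plagl1* (1.05) and *Zdbf2* (1.03). Leaving out 1 library moved *Usp29* between 0.37 and 1.08, *Zim1* between -1.99 and -0.86 (without NPC J/B replicate 2 and replicate 1) and *Zdbf2* between 0.53 and 1.74 (without NPC B/J replicate 1 and replicate 2). The adjusted p of *Mest* was 0.734 in edgeR. DESeq2 called 70 genes, among them *Mest* (1.31, adjusted p = 0.0488). The adjusted p of *Mest* over all alternatives was 0.0488 to 1, so its higher level in J/B NPCs passed under DESeq2 and under no other alternative run.

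These differences between NPC libraries stood beside differences in marker sums. Neuron markers summed to 369 and 1350 CPM in B/J and to 1063 and 2087 CPM in J/B, neural precursor markers to 867 and 1608 CPM in B/J and 2080 and 1927 CPM in J/B. Trophoblast markers summed to 3662 and 1933 CPM in B/J and 1967 and 1370 CPM in J/B, and mesoderm and muscle markers to 110 and 92.7 CPM in B/J and 368 and 148 CPM in J/B. The highest *Nnat* library was the one with the most neuron markers, and the highest *Mest* library the one with the most mesoderm and muscle markers and the fewest fibroblast markers, 926 CPM against 1669 to 2236 CPM in the others. The next highest *Mest* library, NPC J/B replicate 2 at 627 CPM, had the most fibroblast markers, 2236 CPM. The mesoderm and muscle list was mixed between the stages, with 4 of 10 markers higher in NPCs and 2 lower. The part of these cells in the levels of the imprinted genes was not tested.

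**Figure D4:**
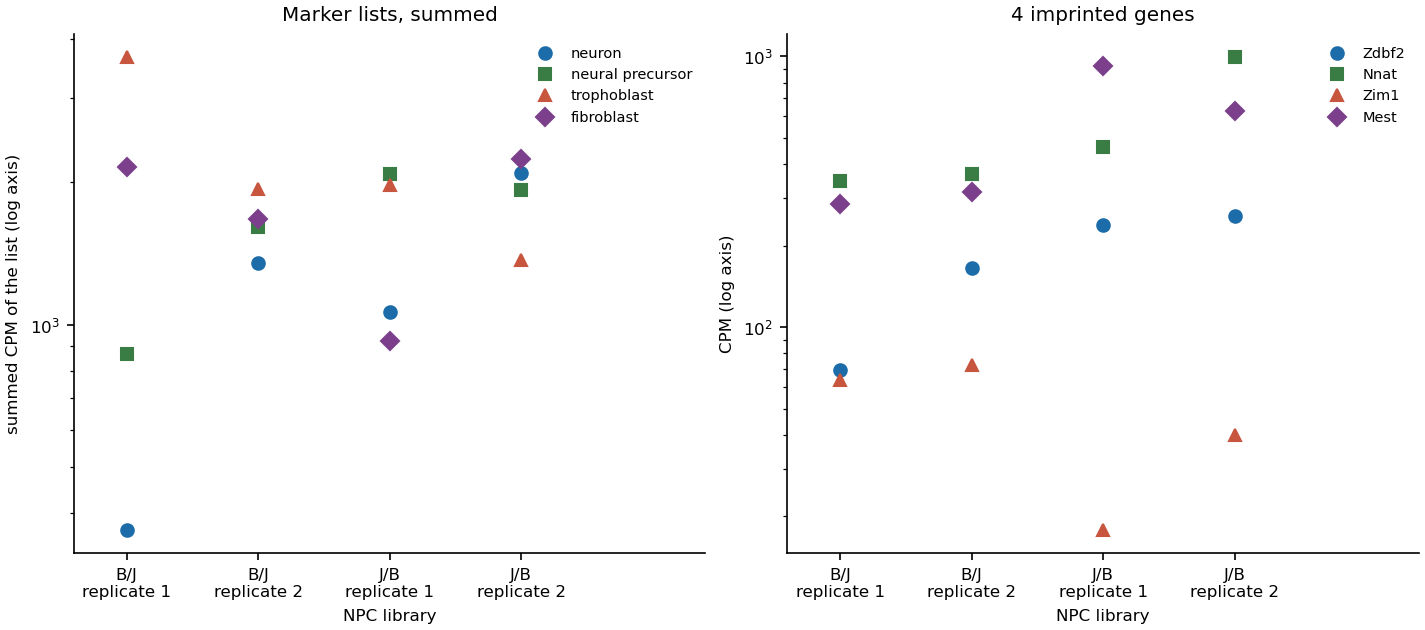
Left, summed CPM of 4 marker lists in the 4 NPC libraries; right, CPM of *Zdbf2*, *Nnat*, *Zim1* and *Mest* in the same libraries, both on log axes. NPC B/J replicate 1 had 369 CPM of neuron markers and the lowest *Zdbf2* level, 69.7 CPM, while *Zim1* was higher in both B/J libraries than in both J/B libraries.

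The scaling of the libraries shifted all stage changes together. All genes tested had a median log2 fold change of 0.17 under TMM, 0.65 when library totals were used and 0.80 when *Gapdh*, *Gusb* and *Tbp* set the scale, and the share of calls that were higher in NPCs was 54.0%, 70.1% and 75.0%. The 8 genes kept their rise and *Impact* its fall under all 3 scalings over both crosses, whereas the sign of *Zdbf2* changed, from -0.55 to 0.11 after scaling to the reference genes. Relative to the median of all genes, *Zdbf2* was at -0.73, -0.71 and -0.69 under the 3 scalings, *Impact* at -1.55, -1.55 and -1.56 and *Peg3* at 1.74, 1.73 and 1.73, where near equal values follow from a scaling that moves all genes alike. Within J/B alone, *Impact* did not pass after scaling to the reference genes (-0.51, adjusted p = 0.155).

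**Figure D5:**
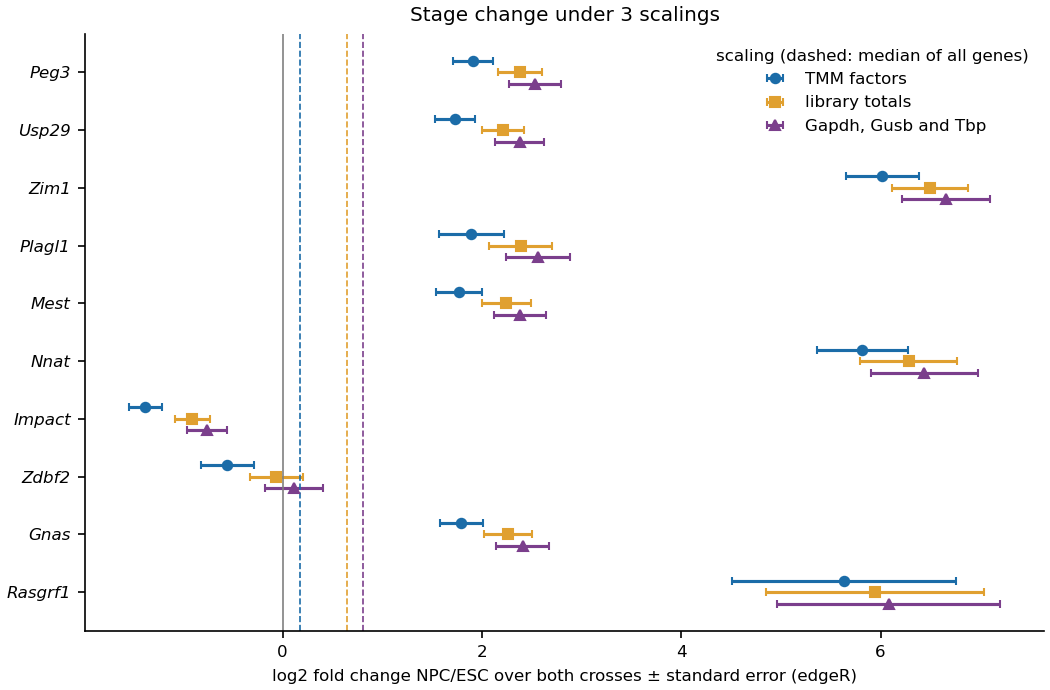
Log2 fold change from ESCs to NPCs over both crosses with its standard error, under TMM factors (blue), library totals (orange) and scaling to *Gapdh*, *Gusb* and *Tbp* (purple), with dashed lines at the median of all genes, 0.17, 0.65 and 0.80. All 10 genes shift to the right with their median line, and *Zdbf2* crosses 0.

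The genes next to each member were read in the same comparison. *Copg2*, which overlaps the exons of *Mest* by 3850 bp on the opposite strand, rose by 0.46 on the log2 scale (adjusted p = 0.0446 in edgeR), and *Klf14* rose by 1.20 (adjusted p = 0.0432), while *Cep41* was at 0.23 and *Klhdc10* at 0.31 without passing under TMM. Both passed as higher under the other scalings, at 0.86 and 0.96 with the reference genes as the scale. *Copg2os2*, an RNA opposite *Copg2* by its name, was at 2.78 (adjusted p = 0.0526 in edgeR) and passed as higher with library totals (3.28, adjusted p = 0.0300) and with the reference genes as the scale (3.50, adjusted p = 0.0255). It had 14 counts over the ESC libraries and 180 over the NPC libraries, so it passed the filter on low counts through its NPC counts alone. *Nnat* lies inside *Blcap*, whose exons it overlaps by 49 bp on the opposite strand, and *Blcap* rose by 1.19 (adjusted p = 2.62e-04 in edgeR), a smaller change than the 5.82 of *Nnat*. The sources used here do not say whether counting used the strand, so reads of such opposite pairs may have been shared or discarded. *Mest* also spans *Mir335*, a microRNA gene that took 1 count over the ESC libraries and 21 over the NPC libraries, which in poly(A) RNA do not measure the mature microRNA.

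Beside *Zdbf2*, the paternally expressed neighbour *Gpr1* rose by 5.19 on the log2 scale, from 0.270 ± 0.140 to 13.7 ± 4.44 CPM (SD, n = 4 libraries each), while *Adam23* fell by 1.51 and *Eef1b2* fell by 1.62. *Zdbf2* itself, between them, did not pass. The genes around *Impact* included *Osbpl1a*, which fell by 0.87, and *Ttc39c* (-0.70) and *Cabyr* (1.08), which did not pass. At *Gnas*, the antisense gene *Gnasas1*, which overlaps its exons by 1112 bp, fell by 0.97 (adjusted p = 0.0323 in edgeR), *Stx16* rose by 0.36, *Ctsz* fell by 0.82, *Nelfcd* fell by 0.50 but was at 0.13 after scaling to the reference genes, and *Npepl1* was at -0.07 without passing but passed as higher after that scaling (0.55, adjusted p = 0.0425 in edgeR). Around *Rasgrf1*, *Ctsh* rose by 3.89 and *Tmed3* by 2.48 and *Morf4l1* fell by 0.76. *Ctsh* had 17 counts over the ESC libraries and 336 over the NPC libraries, so it passed the filter on low counts through its NPC counts alone. Next to *Plagl1*, *Phactr2* rose by 2.17, *Ltv1* and *Sf3b5* fell by 1.62 and 1.44, and *Hymai*, an RNA of the same locus, was at 1.10 without passing. Beside *Nnat*, *Src* rose by 0.55 and *Ctnnbl1* fell by 0.70. These directions are those under TMM, and several falls did not pass under the other scalings. With the reference genes as the scale, *Gnasas1* (-0.34, adjusted p = 0.389), *Ctsz* (-0.18, adjusted p = 0.281), *Osbpl1a* (-0.24, adjusted p = 0.267), *Adam23* (-0.84, adjusted p = 0.0806), *Morf4l1* (-0.14, adjusted p = 0.591) and *Ctnnbl1* (-0.08, adjusted p = 0.678) did not pass in edgeR. *Gnasas1*, *Morf4l1* and *Ctnnbl1* did not pass with library totals either. Rises and falls next to the same member passed under all 3 scalings only beside *Zdbf2* (*Gpr1* and *Eef1b2*) and *Plagl1* (*Phactr2*, *Ltv1* and *Sf3b5*).

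The next lists are set beside the shares of all genes, 37.5% higher and 31.9% lower under TMM and 51.6% and 17.2% with the reference genes as the scale. Of 13 genes of the network known around *Plagl1*, most of them imprinted, 11 rose, none fell, and *Gatm* (1.16) and *Slc38a4* (0.48) did not pass, with a median log2 fold change of 2.56 beside 0.17 over all genes. All 13 rose with library totals and with the reference genes as the scale. *Igf2*, a fetal growth factor, rose by 7.70, *H19*, the non-coding RNA beside it, by 6.71, and *Dcn*, a matrix proteoglycan also among the fibroblast markers, by 6.51. *Dcn* had 5 counts over the ESC libraries and 765 over the NPC libraries. It passed the filter on low counts through its NPC counts alone, and its fitted size rests on few ESC counts. Of the other members of the PLAG family, *Plag1* rose by 0.91 (adjusted p = 0.0113 in edgeR) and *Plagl2* was at 0.32 (adjusted p = 0.0900). Among 40 other imprinted genes tested, a list that holds 9 of those 13 genes, 27 rose and 6 fell, with a median of 1.34. With the reference genes as the scale, 31 rose and 1 fell. Of this list, *Kcnk9*, *Rtl1*, *Airn* and *Slc22a3* had 3, 4, 5 and 6 counts over the ESC libraries. They passed the filter on low counts through their NPC counts alone, so they could be called as higher but not as lower. The share that rose was therefore above the 37.5% of all genes both for the 10 genes here and for the other imprinted genes, and the 2 lists were not tested against each other.

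Of 25 genes of Gs and cyclic AMP signalling, the pathway that *Gnas* feeds, 17 rose and 2 fell, beside 37.5% and 31.9% of all genes, with a median of 0.84. The largest fitted rises were those of adenylyl cyclases, *Adcy7* by 5.42, *Adcy8* by 4.43 and *Adcy5* by 4.01, while *Adcy3* fell by 0.67 and *Ric8b*, a chaperone of Gα subunits, fell by 0.49 but was at 0.15 after scaling to the reference genes, where 18 genes rose and none fell. *Adcy8* had 13 counts over the ESC libraries and 509 over the NPC libraries. It passed the filter on low counts through its NPC counts alone, and its fitted size rests on few ESC counts. Of 15 Ras proteins, exchange factors and regulators tested beside *Rasgrf1*, 5 rose and 4 fell, close to the 37.5% and 31.9% of all genes, with a median of 0.024, and with the reference genes as the scale 7 rose and 2 fell. *Sos2*, *Nf1* and *Rras* rose by 1.75, 1.15 and 1.12, and *Rasgrp2*, *Rasgrp4* and *Mras* fell by 4.73, 1.64 and 1.09.

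The stress pathway that *Impact* restrains is the next list. Of 16 genes around GCN2 and the integrated stress response, 2 rose and 9 fell, beside 37.5% and 31.9% of all genes, with a median of -0.81. With the reference genes as the scale 3 rose and 5 fell, beside 51.6% and 17.2% of all genes. Relative to the median of all genes, the list stood at -0.99 under both scalings, where near equal values follow from a scaling that moves all genes alike. *Asns*, an amino acid synthesis target of ATF4, fell by 1.79, the translation factor subunit *Eif2s1* by 1.40 and *Sesn2* by 1.28, whereas *Ddit3*, a transcription factor induced by stress, rose by 2.30 and *Eif2ak2*, the kinase that responds to double-stranded RNA, by 1.82. Among the calcium pumps that neuronatin modulates, *Atp2a2* fell by 1.05, *Atp2a1* rose by 4.54 and *Atp2a3* was at -0.048 without passing. *Atp2a1* had 8 counts over the ESC libraries and 302 over the NPC libraries. It passed the filter on low counts through its NPC counts alone, and its fitted size rests on few ESC counts. Of 9 partners of *Peg3* and *Usp29* in p53 and TNF pathways, 1 rose (*Ctnnb1*, by 0.37) and 6 fell, beside 37.5% and 31.9% of all genes, or 3 and 4 with the reference genes as the scale, beside 51.6% and 17.2%. *Trp53* fell by 2.60, from 509 ± 46.6 to 117 ± 17.7 CPM (SD, n = 4 libraries each), *Siah1b* by 2.52 and *Usp7* by 2.02. The deubiquitinases related to *Usp29*, *Usp26* and *Usp37*, fell by 4.83 and 1.05.

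Profiles over the 8 libraries were compared by the root mean square difference of centred log2(CPM + 0.5), where a smaller value is more alike, among 14082 genes with a mean of at least 1 CPM. Among the members themselves, *Peg3* and *Usp29* were the closest pair, at 0.388, followed by *Usp29* and *Plagl1* at 0.486, and *Nnat* and *Impact* the farthest, at 3.60. Genes outside the 10 came closer: *Rhbdl1* (0.251) and *Gnaz* (0.274) to *Peg3*, *2900052L18Rik* (0.255) and *Ppp1r26* (0.266) to *Usp29*, *Lamc3* (0.287) and *Trp63* (0.291) to *Zim1*, and *Olfml2b* (0.350) and *E130307A14Rik* (0.351) to *Plagl1*. For *Mest* they were *Gng4* (0.281) and *Tlx3* (0.293), for *Nnat* *Wnt7b* (0.313) and *Ptn* (0.377), and for *Impact* *Pwwp3a* (0.131) and *Gclc* (0.144). *Uchl1* (0.210) was close to *Zdbf2*, and *2310022B05Rik* (0.128) and *Efemp2* (0.132) were nearest to *Gnas*. The added 0.5 CPM compresses the changes of low genes, so that such a gene can come close to a member with a smaller fold: *Gng4* had mean levels of 0.131 CPM in ESCs and 2.78 CPM in NPCs, and *Mest* 103 and 538 CPM. All points share the same libraries and their depth, and *Rasgrf1*, under 1 CPM on average over all libraries, was not compared.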

How the data were processed

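RNA-seq was analysed in 8 libraries of ESCs and NPCs. The authors deposited unnormalized read counts for 26263 genes. Per the labels and the study's methods, libraries were made from poly(A) RNA with either of 2 kits, sequenced on either of 2 instruments and aligned with TopHat2 to the masked mm39 genome with a refGene-based annotation. Which library had which kit is not given, so kit and group cannot be told apart here. HTSeq is named in the submitters' processing notes, and the sources used here do not give its strand setting. The 5 closing entries of each table were left out of library sizes. Among them were ambiguous reads (0.355 to 0.554%) and reads without a feature (5.76 to 10.9%), as shares of reads on genes and closing entries together.

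Counts were fitted in R 4.3.3 with edgeR 4.0.16 (TMM, filterByExpr with a minimum count of 10, robust quasi-likelihood, 4 group means), and p-values were adjusted by Benjamini-Hochberg over the 16399 genes tested, with a threshold of 0.05. CPM were taken on library totals, and exon lengths, positions and sequences from the GENCODE vM39 annotation of GRCm39 and its genome. Alternatives were a replicate block, DESeq2 1.42.0, limma-voom 3.58.1, scaling by RLE, by library totals or by *Gapdh*, *Gusb* and *Tbp*, no filter or a minimum mean of 1 CPM, a fit without robust estimation, a 2-fold threshold, fits of 1 cross alone and each library left out, with a lone library taken to vary as the other groups do. Leaving out ESC J/B replicate 1 and NPC B/J replicate 1 together, and a replicate block within each stage, were added after seeing the data. The members and lists were chosen with earlier results of these data known. Named are the members, the measured neighbour genes, in each other list up to 3 called genes with the largest and the smallest change (minimum mean 1 CPM), and the 2 genes with the profile nearest to each member, of which 1 gene is not reported here.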

Additional observations from a re-analysis of the deposited data

How the results depend on the processing

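Over both crosses, 8 to 10 of the 10 genes passed under every alternative run, and the 8 rises and the fall of *Impact* kept their direction, with *Rasgrf1* not tested under a minimum mean of 1 CPM. Leaving out each library in turn gave 9 to 10 genes over both crosses, 6 to 9 within B/J and 8 to 9 within J/B. For the difference between the crosses in NPCs, DESeq2 called 1 gene of the 10, *Mest*, against 0 in edgeR. Leaving out ESC J/B replicate 1 and NPC B/J replicate 1 together gave 9, 9 and 8 genes over both crosses, within B/J and within J/B. Equal replicate numbers did not pair ESCs with NPCs (replicate differences correlated at 0.052 for B/J and 0.068 for J/B), and a replicate block gave 9 genes in each of the 3 stage comparisons and 0 in the others. In the main fit, 69.4% of all genes passed over both crosses, 55.8% within B/J and 54.5% within J/B. The shares of all genes under these alternatives are not given here, so the counts of stage calls do not set the 10 genes apart. Within each stage the replicate differences of the crosses correlated at 0.518 in ESCs and 0.587 in NPCs. A replicate block within each stage, added after seeing the data, called 0 of the 10 genes for the interaction and for the crosses in either stage. At an unadjusted p below 0.05 it held 3, 5 and 7 of them for the interaction, in ESCs and in NPCs, beside 1715, 874 and 3062 of all 16399 genes.

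Among the 10 genes, signs changed for *Zdbf2* between the stages and for differences between the crosses that passed no test, and apart from the leave-out ranges the causes were not tested. *Zdbf2* was at 0.11 over both crosses after scaling to the reference genes, and within J/B at 0.18 with library totals and 0.46 after that scaling. The J/B to B/J difference of *Gnas* in NPCs was 0.043 with library totals and 0.22 after scaling to the reference genes, and without both named libraries its interaction was -0.059 and its difference in ESCs 0.014. With each library left out, *Zdbf2* within J/B ranged from -0.56 to 0.0048. The interaction ranged from -0.60 to 0.77 for *Plagl1*, -0.016 to 0.67 for *Impact*, -0.020 to 1.18 for *Zdbf2*, -0.014 to 0.92 for *Gnas* and -3.25 to 1.53 for *Rasgrf1*. The difference in ESCs ranged from -0.17 to 0.74 for *Mest*, -0.25 to 0.43 for *Impact* and -0.93 to 0.0059 for *Gnas*, and that in NPCs from -0.086 to 0.22 for *Peg3*. Depth limits *Rasgrf1*, with 0 to 2 counts per ESC library, and a *Rasgrf1* difference between the crosses in ESCs without replicate 2 of J/B was not computed because all counts were 0.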
